A study of Caenorhabditis elegans with 21 samples.

Results

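The comparison described here sets 3 libraries of the lin-61 mutant against 3 libraries of the wild type N2, 6 of the 21 total RNA libraries of the series. Members were taken by genotype label, so no measured value chose them. The lin-61 worms carried the allele lin-61(tm2649) on chromosome I, and N2 (Bristol) is the standard laboratory wild type of the nematode Caenorhabditis elegans. Both groups were early embryos at 20 °C, taken before the bean stage and, by the design text, at about 1 to 300 cells, and all 6 titles begin with 875, a library prefix that the other 5 genotypes do not share. The lin-61 group rests on 1 allele, and the labels speak of 2 independent biological replicates where the titles number 3 libraries. The p-values thus reflect variation among libraries, some of which may be technical. RNA was measured in whole embryos, where fewer cells of a type and less RNA per cell cannot be told apart.

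LIN-61 is a chromatin protein with MBT domains, folds that bind methylated lysines of histone tails. Methylation of histone H3 at lysine 9 marks heterochromatin, and in C. elegans it is deposited by the enzymes MET-2 and SET-25 and is densest on the arms of the autosomes, where repeats are common. The series concerns parallel routes, through LIN-61 or the Argonaute NRDE-3, by which the trimethylating enzyme is brought to chromatin. The comparison addresses which windows of the genome give more or less RNA in the lin-61 mutant.

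Reads were counted by the authors in windows of 500 bp on build ce10, without strand and without gene names, so the results are given by position. Levels are CPM, the read counts scaled to a common library size with TMM factors, and a window is named by its chromosome and its leading base. Depth was 59462797 to 66437115 reads in lin-61 and 54839178 to 67553226 reads in N2. Pairs of libraries within lin-61 correlated at 0.99 to 0.993 over tested windows on the log2 scale (0.5 CPM added), and those within N2 at 0.99. Of 200547 windows, 97353 passed the filter on low counts and were tested. In 37802 windows with no read in any nrde-3 library, the mean level was 0.0101 to 0.0109 CPM in the lin-61 libraries and 0.00871 to 0.014 CPM in the N2 libraries, and these ranges overlapped.

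The label was checked on chromosome I, where lin-61 lies. The lowered block of 4 windows from I 7249001 to 7251000 was taken for this check after its values had been seen and was not matched to a gene, so it bears on the label only in part. Its summed level was 12.7, 12.7 and 12.6 CPM in the lin-61 libraries, against 124, 118 and 127 CPM in the N2 libraries, a level 9.71 times as high in N2. Each of the 4 windows was lower in lin-61, by 2.69 to 3.6 on the log2 scale (edgeR quasi-likelihood test, adjusted p of 5.48e-11 to 8.58e-08). The drop stood in all 3 mutant libraries with almost no spread.

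Many windows were higher in lin-61 than in N2, most of them quiet in N2, and fewer were lower. At an adjusted p below 0.05, 10207 windows were higher in lin-61 than in N2 and 1999 were lower, 10.5 and 2.05 percent of the windows tested. The 2 directions also differed in size. Raised windows had a median log2 fold change of 1.86 (3.62-fold), and 9420 of them rose at least 2-fold, 9.68% of tested windows. Lowered windows had a median of -0.81 (1.75-fold), and 522 of them fell at least 2-fold, 0.536% of tested windows. Over all tested windows the median log2 fold change was -0.04.

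The groups did not overlap in nearly all called windows. In 10153 (99.5%) of the raised windows every lin-61 library lay above every N2 library, and in 1980 of the 1999 lowered windows every lin-61 library lay below every N2 library. Over all tested windows, called or not, those shares were 22.5 and 19.7%. The separation in called windows is no separate result, since they were called between these same libraries.

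The count fell when any single library was left out, and most without N2 library c. Raised and lowered windows numbered 4424 and 358 without N2 library c, 5809 and 388 without lin-61 library c, and 6311 and 583 without lin-61 library a. The numbers were 9059 and 1219 without lin-61 library b, 7886 and 1520 without N2 library b, and 7022 and 856 without N2 library a. Each of these fits had fewer libraries and tested 112247 to 112270 windows, against 97353 in the reported fit. How much of each fall came from that was not tested. Of the 4424 windows raised without N2 library c, 4374 were among the 10207. N2 library c was the lowest of the N2 libraries at 70.5% of raised windows, against 32.6% of tested windows, and lin-61 library b was the lowest of the lin-61 libraries at 72.6%, against 34.2%. With both of those libraries left out, which was done after seeing the data, 4407 windows were higher and 185 lower. The median level over the raised windows was 1.45, 1.11 and 1.49 CPM in lin-61 libraries a, b and c, against 0.377, 0.411 and 0.242 CPM in N2 libraries a, b and c.

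Raised windows were quieter in N2 than tested windows, and the level of lowered windows depended on the threshold. Raised windows had a median of 0.34 CPM in N2, with quartiles of 0.113 and 1.14 CPM, and 72.7% of them lay below 1 CPM there. Lowered windows had a median of 9.84 CPM in N2, with quartiles of 2.99 and 22.8 CPM, and 11.6% of them lay below 1 CPM. The lowered windows that fell at least 2-fold had a median of 1.26 CPM in N2, close to that of all tested windows, and the median of lowered windows was 5.75 CPM without N2 library c, 5.84 CPM without lin-61 library c, and 4.55 CPM without both N2 library c and lin-61 library b. For all tested windows the median was 1.27 CPM, and 46.5% were below 1 CPM. The share of tested windows that were raised was 26.8% below 0.1 CPM in N2, 16.6% from 0.1 to 0.3 CPM, 12.1% from 0.3 to 1 CPM and 11.4% from 1 to 3 CPM. Above that the share was smaller, at 5.23% from 3 to 10 CPM, 1.62% from 10 to 30 CPM and 0.8% from 30 to 100 CPM. The lowered share ran the other way, with 0 of 8667 windows below 0.1 CPM, 1.84% from 1 to 3 CPM and 4.64% from 10 to 30 CPM. A window below 0.1 CPM in N2 could not pass the low-count filter through N2 and was tested through other genotypes. It also had few reads to lose, so the low end of both shares was in part set in advance.

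**Figure D1:**
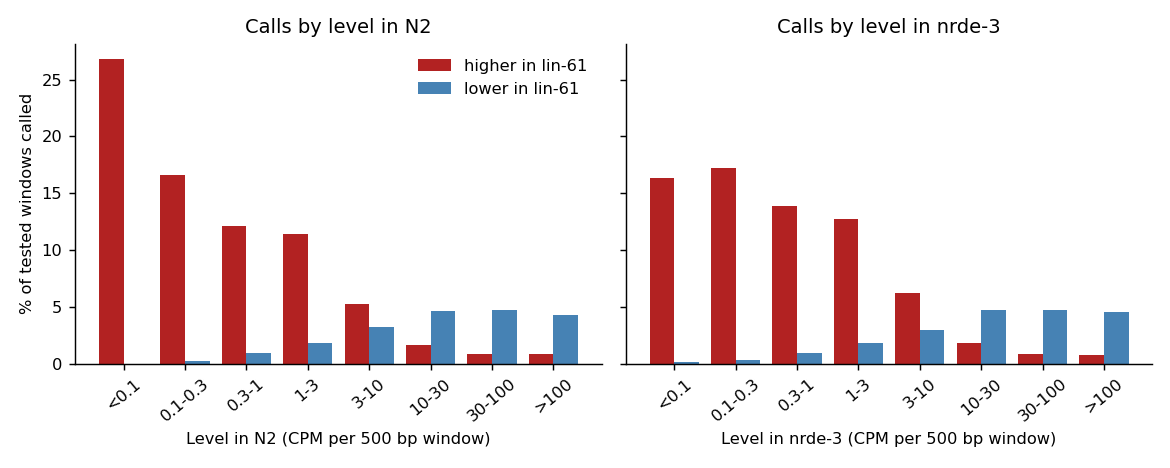
Share of tested windows called higher (red) or lower (blue) in lin-61 than in N2, in percent, by the mean level of the window in CPM in N2 (left panel) or in nrde-3 (right panel). Raised windows make up 26.8% of those below 0.1 CPM in N2 and 16.3% of those below 0.1 CPM in nrde-3, and lowered windows outnumber raised ones from 10 CPM up in both panels. Windows below 0.1 CPM in N2 were tested through other genotypes, so the left end of that panel was in part set in advance.

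The N2 level is part of the fold change, so the windows were also ordered by their level in nrde-3, whose libraries are in neither group. The gradient was flatter at the low end. Raised windows made up 16.3% of those below 0.1 CPM in nrde-3, 17.2% from 0.1 to 0.3 CPM, 12.7% from 1 to 3 CPM and 1.8% from 10 to 30 CPM. Lowered windows made up 0.0963% below 0.1 CPM and 4.74% from 10 to 30 CPM in nrde-3.

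The filter on low counts let windows in by different groups. Of the 10207 raised windows, 3199 reached the filter's level of 0.404 CPM, here without TMM factors, in all 3 N2 libraries, 5785 reached it in all libraries of another genotype but not of N2, and 1223 did so in lin-61 alone. A window of that last kind had to be higher in lin-61 to be tested at all, so its rise is no separate result. With no filter, 11250 windows were raised, 9783 of the 10207 among them, with a median of 0.299 CPM in N2. Of the 1999 lowered windows, 1854 reached the level in N2.

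Levels by size of the rise are given as a description, since the N2 level is the base of the fold change. The 787 raised windows below 2-fold had medians of 6.01 CPM in lin-61 and 3.26 CPM in N2. The 2980 windows from 4-fold to 8-fold had medians of 0.783 CPM in lin-61 and 0.145 CPM in N2, and the 127 windows at 32-fold or more had medians of 0.804 CPM in lin-61 and 0.0126 CPM in N2. Of those 127 windows 4 reached the filter's level in N2, and of the 303 windows from 16-fold to 32-fold 0 did, so the others were tested through other groups. Of those 127 windows, 59 lay on V and 15 on X, whereas among the 303 windows 65 lay on V and 107 on X.

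By chromosome, X and V held more of the raised windows than their tested windows would give. Raised windows made up 15.5% of tested windows on X and 13.5% on V, against 9.81% on II, 9.75% on IV, 7.99% on I and 7.05% on III. Lowered windows ran the other way on X, at 1.1% there, against 2.06 to 2.57% on the autosomes. The median log2 fold change of all tested windows was 0.15 on X, 0.03 on V and -0.11 on III. These shares are counts over windows that lie side by side, and they were not tested.

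X windows are quieter in N2 than autosomal ones, with medians of 0.772 and 1.42 CPM over tested windows. At a like N2 level the share raised was still larger on X in each of the 7 level classes. It was 31.0% on X against 25.6% on the autosomes below 0.1 CPM, 15.9 against 11.3% from 0.3 to 1 CPM, and 4.71 against 1.22% from 10 to 30 CPM. The share of all reads that fell on X was 8.6, 7.93 and 8.81% in lin-61 libraries a, b and c, against 7.7, 7.46 and 7.4% in N2 libraries a, b and c. The groups did not overlap, with a difference of 0.928 percentage points (exact two-sided permutation test, p = 0.1, the smallest that 3 against 3 allows). Without the 97 windows above 1000 CPM in any of the 6 libraries, an alternative added after seeing the data, the shares were 11.5 ± 0.194% in lin-61 and 9.77 ± 0.286% in N2 (SD, n = 3 each; exact permutation p = 0.1).

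For the chromosome domains, each chromosome was cut into 3 parts of equal length, as a stand-in for its arms and its centre. Raised windows lay more often in the middle part, where they made up 12.2% of tested windows, against 9.89% in the left part and 9.03% in the right part. Outer parts held 57.1% of raised windows and 62.8% of lowered windows, against 63.2% of tested windows. With outer parts cut to 1 in 4 of the length at each end, they held 36.6% of raised, 44.7% of lowered and 45.6% of tested windows. For lowered windows the order hung on the setting, with outer shares of 59.1% against 64.4% of tested windows in the fit of lin-61 and N2 libraries only, and 69.6% against 63.0% without lin-61 library c. On X the middle part reached 18.9%, against 13.7% in the outer parts, and on the autosomes 11.1%, against 8.62%. In 10 bins of equal length along the chromosomes, the raised share was 11.3 to 13% in bins 3 to 7 and 7.92 to 8.91% in the other 5.

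The chromosomes were not alike in this. The middle part led on II, IV, V and X, for example with 16.2% raised on V against 12.9% in its left and 10.5% in its right part. On I the 3 parts had 7.75, 8.42 and 7.72% from left to right, and on III 6.49, 6.83 and 7.81%. Lowered windows made up 0.748 to 2.85% of tested windows in all parts but the left part of II, where they made up 4.03%, and their lowest shares were in the left and middle parts of X.

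**Figure D2:**
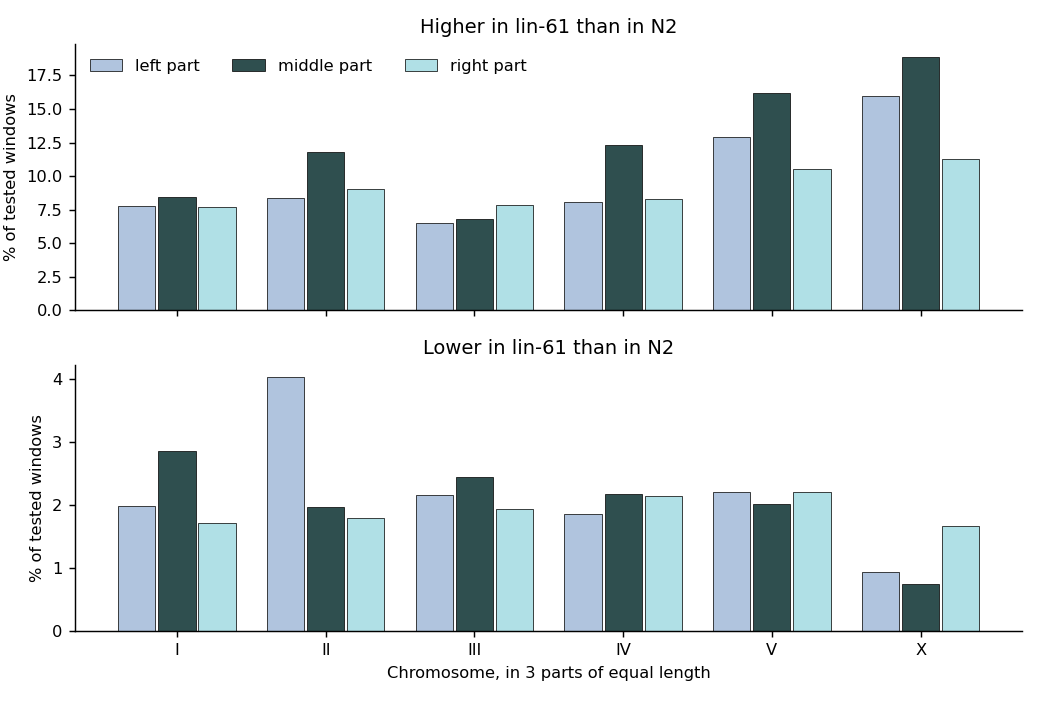
Share of tested windows called higher (upper panel) or lower (lower panel) in lin-61 than in N2, in percent, for the left, middle and right part of each chromosome. The middle part of X has the highest raised share, 18.9%, and the left part of II the highest lowered share, 4.03%.

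The middle parts are on the whole busier in N2 than the outer ones, with medians of 1.56 and 1.15 CPM over tested windows. Within classes of N2 level, the raised share was larger in the middle parts up to 30 CPM. It was 20% in the middle against 14.7% outside from 0.1 to 0.3 CPM, 14.9 against 9.74% from 1 to 3 CPM, and 1.74 against 1.53% from 10 to 30 CPM. Above 30 CPM it was 0.786% in the middle and 0.829% outside. The share of all reads that fell on outer parts was 54.6, 49.8 and 51.0% in lin-61 libraries a, b and c and 51.9, 49.1 and 49.3% in N2 libraries a, b and c. These groups overlapped (exact two-sided permutation test, p = 0.5). Without the 97 windows above 1000 CPM, the alternative added after seeing the data, the groups overlapped too. The outer shares were then 55.0 ± 0.235% in lin-61 and 54.7 ± 0.252% in N2 (SD, n = 3 each; exact permutation p = 0.2).

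**Figure D3:**
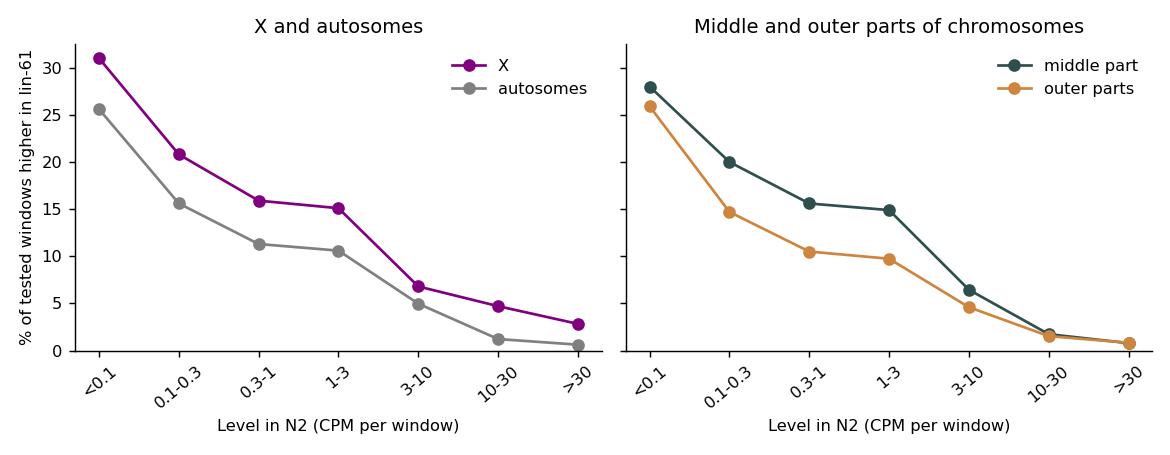
Share of tested windows called higher in lin-61 than in N2, in percent, by the level in N2 in CPM, for X and the autosomes (left panel) and for middle and outer parts of chromosomes (right panel). The X line lies above the autosomal line in all 7 classes, and the middle line above the outer line up to 30 CPM.

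Raised windows stood away from busy ones. Only 4.41% of raised windows adjoined a window with at least 10 CPM in N2, against 30.4% of tested windows and 52.6% of lowered windows. For raised windows the gap was there at like levels too. Among windows from 0.3 to 1 CPM in N2, 1.14% of raised ones had such a neighbour, against 12.7% of those tested. From 3 to 10 CPM the shares were 17% of raised and 39.2% of tested windows. Lowered windows were close to tested ones in these classes, at 11.2% from 0.3 to 1 CPM and 38.2% from 3 to 10 CPM.

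At the scale of 1 Mb, the raised share ran from 2.55 to 28.3% over 102 bins with at least 200 tested windows, with a median of 9.26%. It was above 15% in 14 bins, of which 7 lay on X and 5 on V. The bin from 5 to 6 Mb on X was the highest, with 272 of 962 tested windows raised and 2 lowered. V from 6 to 7 Mb followed with 282 of 1029 (27.4%) and X from 11 to 12 Mb with 236 of 926 (25.5%). At the other end, III from 1 to 2 Mb had 21 of 822. The lowered share peaked in the left parts of II and V, at 65 of 745 windows (8.72%) from 3 to 4 Mb on II and 43 of 496 (8.67%) from 2 to 3 Mb on V, against a median of 1.97% per bin.

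Raised windows ran together in longer blocks than lowered ones. When called windows of 1 direction were joined across gaps of at most 1 window, the 10207 raised windows made 3558 blocks with a median length of 1 kb, and the 1999 lowered windows made 1353 blocks with a median of 0.5 kb. A single window made up 48.0% of raised and 71.7% of lowered blocks, but held 16.7% of raised and 48.5% of lowered windows. Blocks of 5 kb or more numbered 213 among the raised ones, with 26.1% of all raised windows, and 5 among the lowered ones, with 2.5% of lowered windows. The longest raised block measured 25.5 kb and the longest lowered block 6.5 kb. With no gap allowed, the longest were 16.5 and 6.5 kb, and with a gap of 3 windows 39.5 and 10.5 kb. Since 10.5% of tested windows were raised and 2.05% lowered, neighbours of like call meet more often among the raised ones, and the difference in length was not tested against that.

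**Figure D4:**
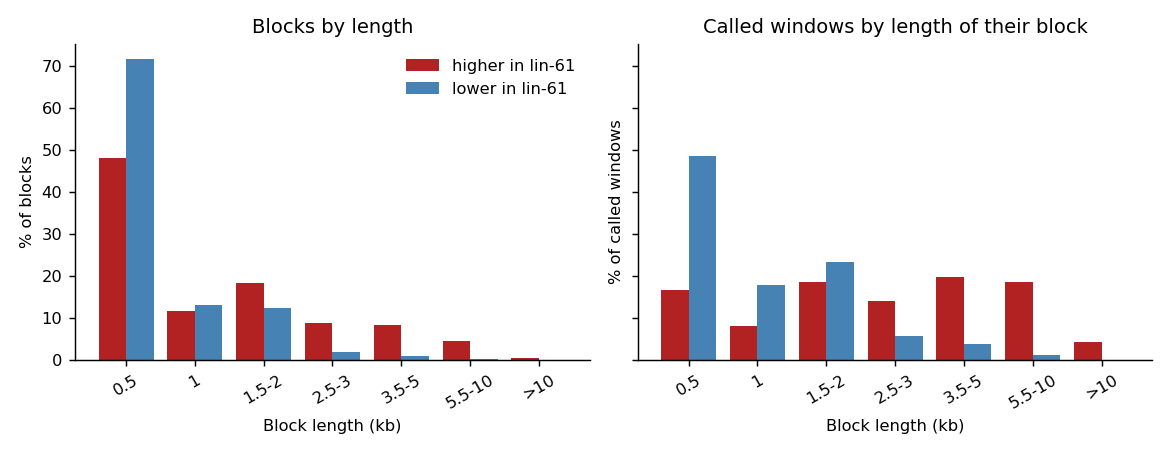
Length of blocks of windows higher (red) or lower (blue) in lin-61 than in N2, in kb, as percent of blocks (left panel) and as percent of called windows (right panel). Single windows make up 48.0% of raised and 71.7% of lowered blocks, and blocks above 10 kb occur among the raised ones only.

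Windows in longer raised blocks rose somewhat more and lay more often in the middle parts. In raised blocks above 5 kb the median log2 fold change per window was 2.12, with 48.3% of windows in middle parts and 26.2% on X. In raised single windows it was 1.67, with 38.2% in middle parts and 21.6% on X. The median level in N2 was 0.419 CPM in those long blocks and 0.239 CPM in single windows, so length did not go with a quieter start. Lowered windows in blocks of 2.5 to 5 kb lay in middle parts less often, at 17.5% of 189 windows, against 39.3% of 970 lowered single windows.

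The longest raised stretch lay in the left part of V, in 3 blocks set close together. The block from V 6164501 to 6190000, of 25.5 kb, had 48 of its 51 windows raised, by 1.86 to 3.65 on the log2 scale (adjusted p of 0.000105 to 0.0306). Its summed level was 136, 122 and 198 CPM in lin-61 libraries a, b and c, against 26.9, 32.7 and 10.9 CPM in N2 libraries a, b and c, a 6.47-fold difference of means. In the 2.5 kb before it the level per window was 0.0972 CPM in lin-61 and 0.0296 CPM in N2, against 2.98 and 0.46 CPM inside, so the level stepped up at its left edge. The block from V 6144501 to 6161000 lay before it, with all 33 windows raised, at 48.5 ± 15.7 CPM in lin-61 and 8.65 ± 3.81 CPM in N2 (SD, n = 3 each). The block from V 6191001 to 6204000 followed it, at 117 ± 26.2 CPM in lin-61 and 23.7 ± 10.8 CPM in N2. Groups did not overlap in these 3 blocks, which is no separate result, since blocks join windows called between these groups.

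The other long raised blocks ranged from 2.39-fold to 7.96-fold. The block from IV 7589001 to 7606000, of 17 kb, held 20, 13 and 28.5 CPM in lin-61, against 2.68, 2.93 and 2.13 CPM in N2. The block from X 3227501 to 3243500, of 16 kb, held 47.1, 30.5 and 52.3 CPM in lin-61, against 6.92, 6.99 and 3.12 CPM in N2. Its right edge meets a busy region, with 17.1 CPM per window in lin-61 and 20.9 CPM in N2 over the next 2.5 kb, a level that does not share the 7.63-fold rise of the block. The blocks from X 11420501 and from II 7724001, both of 13.5 kb, were 4.37 and 4.19 times as high in lin-61 as in N2. The block from III 7741001 to 7754000 was the busiest of the 8 longest and the least changed, at 202 ± 30.2 CPM in lin-61 and 84.8 ± 26.5 CPM in N2, a 2.39-fold difference. On I the longest block ran from 8069501 to 8082000, at 15.1 ± 3.92 CPM in lin-61 and 3.58 ± 0.927 CPM in N2.

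**Figure D5:**
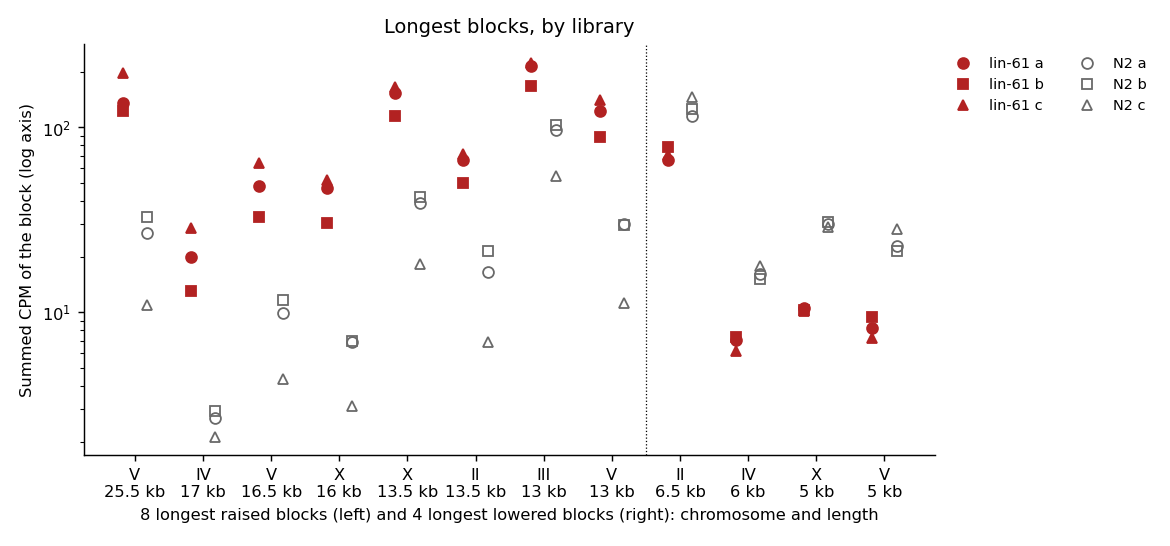
Summed level in CPM, on a log axis, of the 8 longest raised and the 4 longest lowered blocks in each lin-61 library (filled red) and each N2 library (open grey), with shapes for libraries a, b and c. The groups are apart in every block, which is no separate result, since blocks join windows called between these groups. N2 library c is the lowest N2 library in each of the 8 raised blocks, and lin-61 library b is the lowest lin-61 library there.

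In each of these 8 raised blocks, N2 library c was the lowest N2 library and lin-61 library b the lowest lin-61 library, so the same libraries stood out as in the count of calls. What sets these libraries apart was not tested, a difference in embryo stage between libraries included, so the raised windows are a difference between these libraries and not shown to follow from lin-61 alone. Levels above N2 were also seen in genotypes that carry no lin-61 mutation by label, nrde-3 met-2 and nrde-3 set-25. The 25.5 kb block on V held 287 ± 196 CPM in lin-61 set-25, 111 ± 48.9 CPM for nrde-3 met-2 and 87.4 ± 28.1 CPM for nrde-3 set-25. It held 22.3 ± 9.77 CPM in nrde-3, against 23.5 ± 11.3 CPM in N2 (SD, n = 3 each). The 16 kb block on X held 119 ± 92.4 CPM in lin-61 set-25, 18.1 ± 4.4 CPM for nrde-3 met-2 and 36.5 ± 11.6 CPM for nrde-3 set-25. It held 10.2 ± 4.8 CPM in nrde-3, against 5.68 ± 2.22 CPM in N2 (SD, n = 3 each). These 4 genotypes share the prefix 1121, so prefix does not differ among them, whereas against N2 genotype and prefix cannot be told apart.

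The 8 blocks that added most reads ran from 0.5 to 8 kb and held 155 to 592 CPM in N2. The 2 with the largest summed gain lay near the right end of I and rested on 1 library. At I 15060501 the level was 7800, 1170 and 924 CPM in lin-61 libraries a, b and c, against 459, 696 and 519 CPM in N2 libraries a, b and c. At I 15067501 it was 5840, 400 and 352 CPM in lin-61, against 180, 264 and 298 CPM in N2. Away from that end, the block from III 5107001 to 5108500 held 1170 ± 131 CPM in lin-61 and 531 ± 142 CPM in N2, and the block from V 12352501 to 12354000 held 969 ± 144 CPM in lin-61 and 380 ± 98.9 CPM in N2. The block from I 6844001 to 6845000, at 1160 CPM in lin-61 and 592 CPM in N2, was 1.96 times as high in lin-61. On V 7827001 to 7833500, 13 windows of 13 rose, with 904 ± 84.9 CPM in lin-61 and 392 ± 99.5 CPM in N2. On X, the block from 5820001 to 5828000 held 709 ± 40.3 CPM in lin-61 and 200 ± 86.9 CPM in N2 (SD, n = 3 each for all of these). The block from X 8748001 to 8751000 stood alone in a silent region. It held 607, 572 and 604 CPM in lin-61, against 177, 183 and 107 CPM in N2, while its flanks of 2.5 kb had at most 0.0447 CPM per window. In lin-61 set-25 this block held 121 ± 41.6 CPM, against a mean of 155 CPM in N2. The block from X 5820001 held 212 ± 73.7 CPM in lin-61 set-25 (SD, n = 3 each), near its N2 level. Lin-61 set-25 was above N2 in the blocks from III 5107001, V 12352501, I 6844001 and V 7827001. It held 1500 ± 552, 683 ± 349, 1900 ± 541 and 869 ± 337 CPM there (SD, n = 3 each). For nrde-3 set-25, with no lin-61 mutation by label, the means in these blocks were 1030, 430, 1430 and 474 CPM. For nrde-3 they were 657, 265, 943 and 337 CPM, above N2 in the blocks on III and I and below it in those on V.

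The windows with the largest rise fell into a pair of types by their spread over libraries and by their level elsewhere, a split made after the values were seen. Windows of the one type had 3 like lin-61 libraries and lower levels in every other genotype. V 17571001, in a block of 5 kb, held 101, 125 and 97.1 CPM in lin-61, against 0.622, 0.64 and 0.966 CPM in N2. Its log2 fold change was 7.18 ± 0.33 (SE, adjusted p = 8.24e-13), and it held 10.9 CPM in lin-61 set-25 and 0.295 CPM in nrde-3. V 8828001, in a block of 4 kb, held 10.9, 10 and 9.14 CPM in lin-61, against 0.207, 0.0686 and 0.121 CPM in N2, which is 6.17 ± 0.43 on the log2 scale (SE, adjusted p = 9.51e-10). V 8871501, in another block of 4 kb, held 13.2, 14.9 and 13.3 CPM in lin-61, against 0.207, 0.206 and 0.314 CPM in N2, which is 5.82 ± 0.3 on the log2 scale (SE, adjusted p = 4.62e-12). In lin-61 set-25 the last pair held 1.26 and 2.41 CPM, far below the lin-61 single mutant.

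Windows of the other type were low in lin-61 library b and higher still in set-25 genotypes. X 4354501 had 393, 105 and 421 reads in the lin-61 libraries, against 0, 1 and 1 read in the N2 libraries, a ratio of 409 per unit of depth (exact binomial 95% interval 113 to 3380, counting error only). It reached 81.7 ± 63.2 CPM in lin-61 set-25 and 22.8 ± 6.13 CPM in nrde-3 set-25 (SD, n = 3 each). V 4647501 had 1767, 464 and 1301 reads in lin-61, against 11, 28 and 2 in N2, and stood at 261 ± 217 CPM in lin-61 set-25 (SD, n = 3). V 13415501 had 539, 224 and 598 reads in lin-61, against 5, 10 and 1 in N2. V 12378001, V 13411001, II 8446501 and II 10599001 showed the same order of lin-61 libraries, with log2 fold changes of 6.2, 6.95, 5.91 and 5.89. The rule for naming windows required that groups do not overlap, so that is no finding for these 10.

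Lowered windows changed less and in shorter runs. The longest lowered block, from II 2123001 to 2129500 in the left part of II, had 13 of 13 windows lower, by 0.65 to 1.11 on the log2 scale. It held 67.0, 78.2 and 71.3 CPM in lin-61, against 115, 126 and 146 CPM in N2. The block from X 7301001 to 7306000 was tighter, at 10.6, 10.3 and 10.2 CPM in lin-61, against 30.1, 30.9 and 28.8 CPM in N2, and stood between flanks of at most 0.108 CPM per window. It held a mean of 26.8 CPM in nrde-3, and lin-61 set-25 had 23 CPM. The block from IV 1423001 to 1429000 held 6.9 ± 0.597 CPM in lin-61 and 16.4 ± 1.37 CPM in N2, and the block from V 2476501 to 2481500 held 8.32 ± 1.08 CPM in lin-61 and 24.3 ± 3.6 CPM in N2 (SD, n = 3 each).

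The largest loss of reads was in the right part of II. The block from II 13819501 to 13821500 held 1260, 1810 and 1410 CPM in lin-61, against 2960, 2870 and 2850 CPM in N2, and the block from II 13823001 to 13824000 held 926, 1450 and 1070 CPM in lin-61, against 2250, 2240 and 2240 CPM in N2. At II 13825501 the level was 323 ± 39.1 CPM in lin-61 and 839 ± 73.0 CPM in N2 (SD, n = 3 each). These 3 neighbouring blocks were each lower in every lin-61 library than in any N2 library. That is no separate result, since blocks join windows called between these groups. Genotypes with no lin-61 mutation by label were also below N2 in these 3 blocks on II. They held 1660 ± 413, 1260 ± 300 and 522 ± 220 CPM in nrde-3 (SD, n = 3 each). For nrde-3 set-25 the means were 1860, 1420 and 534 CPM. The block from I 11355001 to 11356000 held 394 CPM in lin-61 and 663 CPM in N2, with 711 CPM in nrde-3.

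Among single windows, the 5 named for the largest fall had log2 fold changes of -2.44 to -3.99. V 7761001 had 54, 44 and 62 reads in lin-61, against 321, 306 and 392 in N2, which is -2.86 ± 0.27 on the log2 scale (SE, adjusted p = 3.21e-07). II 4755001 held 3.33, 3.77 and 3.09 CPM in lin-61, against 19.5, 14.6 and 21.7 CPM in N2, and was at 0.149 CPM in lin-61 set-25. It was also below N2 in genotypes with no lin-61 mutation by label, at 4.16 CPM in nrde-3 and 1.97 CPM for nrde-3 set-25. V 7761001 likewise had 1.88 CPM in nrde-3, against a mean of 7.5 CPM in N2, and the block from V 2476501 had 7.15 CPM in nrde-3, so N2 stood above the genotypes without a lin-61 mutation too. IV 2782001 held 1.45, 1.13 and 1.12 CPM in lin-61, against 7.8, 6.01 and 6.3 CPM in N2. The lowest log2 fold change, -3.99 at IV 2829001, rested on 1, 2 and 2 reads in lin-61, against 22, 13 and 42 reads in N2, and that call was lost when any lin-61 library, N2 library a or N2 library c was left out.

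The same windows were read in libraries outside the comparison. Lin-61 set-25 and nrde-3 set-25 share the prefix 1121 and the set-25 mutation, differ in lin-61 and in nrde-3, and share no library with lin-61 and N2. Between them 1.67% of tested windows were higher and 0.612% lower in lin-61 set-25. Of the 10207 windows raised in lin-61, 587 (5.75%) were higher and 21 were lower in lin-61 set-25, with a median log2 fold change of 0.55 against 0.03 over all tested windows. The libraries of the groups overlapped in their median level over those 10207 windows. It was 1.67, 0.971 and 2.8 CPM in lin-61 set-25 libraries a, b and c, against 1.48, 1.07 and 1.09 CPM in those of nrde-3 set-25. Of the 1999 lowered windows, 69 (3.45%) were lower and 12 higher, with a median of -0.15. With only the libraries of those 2 groups fitted, 47 of 9477 raised windows were higher, against 0.118% of tested windows. Among the 10 windows with the largest rise, V 17571001 had a log2 fold change of 2.75 (adjusted p = 4.07e-06) between these groups, and V 8828001 one of 0.23 (adjusted p = 0.791).

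The level over the raised windows also differed among the other genotypes. Its median was 1.84 CPM in lin-61 set-25 and 1.35 CPM in lin-61. For nrde-3 set-25 it was 1.21 CPM, for libraries with the label lin-61 met-2 1.01 CPM, for nrde-3 met-2 0.854 CPM, for nrde-3 alone 0.531 CPM, and for N2 0.34 CPM. N2 was the lowest of the 7 genotypes over these windows, which were chosen for being low in N2 relative to lin-61. Single libraries of lin-61 set-25 ran from 0.971 to 2.8 CPM, a wider range than the 1.11 to 1.49 CPM of lin-61. Over the lowered windows the median was 5.57 CPM in lin-61, 6.01 CPM in lin-61 set-25, 8.73 CPM in nrde-3 and 9.84 CPM in N2. The I stretch used to check the lin-61 label stood at 15.7 ± 1.97 CPM in lin-61 set-25, against 123 ± 4.55 CPM in N2 (SD, n = 3 each). In those with the label lin-61 met-2 it stood at 132 ± 10.6 CPM, so those libraries were near N2 there and unlike the other lin-61 groups. The stretch was picked after its values were seen and not matched to a gene, so it bears on that label only in part.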

How the data were processed

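The authors deposited raw read counts per window of 500 bp from total RNA depleted of ribosomal RNA. Build ce10 is given in the submitters' processing notes. The aligner, the counting tool and the treatment of reads with several matches are not given in the sources used here, so repeats may share reads. Columns were matched to genotypes by name, and the letters a, b and c carry no link to numbered titles. A further 6 columns of per-sample values were not used. The annotation at hand is of another build, so no gene names, gene lists or sequences are given.

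Counts of all 21 libraries entered a quasi-likelihood model (edgeR 4.0.16 under R 4.3.3: filterByExpr with minimum count 10, TMM factors, glmQLFit, glmQLFTest), 1 coefficient per genotype and 14 residual degrees of freedom. Benjamini-Hochberg adjustment ran over all 97353 tested windows. Alternatives were RLE scaling, no filter, fewer libraries, DESeq2 1.42.0, a 2-fold threshold, other gaps and other outer parts. On simulated data for lin-61 against N2 over 91729 windows, 20 of 100 windows changed by 1 and 93 of 100 changed by 2 on the log2 scale were recovered, with 4 false calls. Reads carry no molecular identifiers, so intervals reflect the error of counting alone.

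Windows were named by a fixed rule: the 10 highest and 5 lowest log2 fold changes among called windows whose groups did not overlap and whose mean log2 CPM reached 1, with 1 per block. Named blocks were the 8 longest raised and 4 longest lowered, as many by summed change, and the longest raised block per chromosome. The comparison and these rules were chosen with earlier results of these data known. Tables and figures used Python 3.11.15 with pandas 2.3.3, scipy 1.17.1 and matplotlib 3.10.9.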

Additional observations from a re-analysis of the deposited data

How the results depend on the processing

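No fold change of a named window changed sign under the alternatives run. The outer share of lowered windows changed side: it lay below that of tested windows in the reported fit (62.8 against 63.2%) and above it in each fit that left out 1 library and with no filter (69.8 against 66.7%). No paired analysis was possible because the columns carry letters and not the replicate numbers of the titles. Leaving out 1 library at a time gave 4424 to 9059 raised windows and 358 to 1520 lowered windows. Across those fits, outer parts held 55.7 to 57.8% of raised and 63.8 to 69.6% of lowered windows, X held 23.5 to 24.9% of raised windows, the median N2 level of lowered windows was 5.75 to 8.87 CPM, and 46.7 to 55.4% of raised blocks were 1 window long. Fitting lin-61 and N2 libraries only gave 16135 raised and 6245 lowered windows, with 59.4 and 59.1% on outer parts, 22.5% of raised windows on X, and median N2 levels of 0.568 and 14.5 CPM. Without the libraries labelled met-2, 3609 windows were lower (59.8% outer, median 11.6 CPM in N2), and DESeq2 called 3716 lower (59.5%, 12.2 CPM). With no filter on low counts 1046 were lower (69.8%, 5.47 CPM), and with a 2-fold threshold 522 (72.0%, 1.26 CPM). Without N2 library c and lin-61 library b, chosen after seeing the data, 4407 windows were higher and 185 lower, with 25% of raised windows on X, 68.1% of lowered windows on outer parts, median N2 levels of 0.25 and 4.55 CPM, and 52.9% of raised blocks 1 window long. That share was 58.9% with no gap and 38.1% with a gap of 3 windows, and outer parts of 1 in 4 of the length at each end held 36.6% of raised and 44.7% of lowered windows. For lin-61 set-25 against nrde-3 set-25, fitting only those libraries left 47 of the raised windows higher. Across alternatives, named windows kept their call in 174 checks and lost it in 6, all 6 at IV 2829001. The cause of these shifts was not tested. In simulated data 20 of 100 windows with a 2-fold change were called. Far fewer windows were changed there than the 12206 called here, which makes the adjusted p stricter. That share therefore does not carry over to lin-61 against N2.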
